A study of Macaca mulatta with 2 samples.

Results

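The HOX cluster genes were examined in primary Sertoli cell cultures of rhesus macaques (Macaca mulatta). Sertoli cells are the somatic cells that surround and nourish germ cells inside the seminiferous tubule. The members were chosen by name: every probe whose gene name was HOX followed by a cluster letter (A, B, C or D) and a number. This gave 52 probes for 39 genes, out of 41000 probes and 30982 distinct gene names on the array. The data were 2 two-colour Agilent arrays, each with RNA of 1 pubertal culture against RNA of 1 infant culture. The infant animals were younger than 3 months. The pubertal animals were 18 to 22 months old and had been brought into puberty by gonadotropin-releasing hormone, infused at 0.15 µg/min in pulses that lasted 2 min and returned at 3 h intervals over 4 to 5 weeks. Every culture, infant and pubertal alike, was kept for 24 h with testosterone at 100 nM and with follicle-stimulating hormone at 5 ng/ml, so no value here describes cells without these hormones. Pubertal RNA carried Cy5 on array 1 and Cy3 on array 2. The 4 cultures came from different animals, and the labels call the arrays biological replicates. The design asks how Sertoli cells of the 2 stages differ, and age and the GnRH infusion cannot be told apart in it.

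HOX genes encode homeodomain transcription factors and lie in 4 clusters, A to D, on different chromosomes. Within a cluster the genes stand in numbered order, up to paralogue 13, and genes with the same number in different clusters are related copies. Low numbers are known from the anterior embryo and high numbers from the posterior trunk, limbs and urogenital tract. The identity set up in the embryo is often kept in adult mesenchymal cells, and HOXA10 and HOXA11 are known in mice for their part in testis descent. The proteins bind DNA with TALE-class partners such as PBX and MEIS. Polycomb and Trithorax proteins keep the clusters silent or active, and retinoic acid and CDX factors act on them in the embryo.

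Human probes of 60 bases measured macaque RNA, and HOX genes share much of their homeobox, so some of the probe sequences bear on the results. The first pair shows how alike probes of different clusters can be. The capitals mark TGGTTNCA (N stands for any base), searched on both strands, which lies in a conserved stretch of the homeobox. It was in 4 of the 52 HOX probes (named HOXA10, HOXB2, HOXB6 and HOXC10) and in 483 of all 41000 probes of the same length, or 1.18%.
HOXA10 probe A_24_P914411: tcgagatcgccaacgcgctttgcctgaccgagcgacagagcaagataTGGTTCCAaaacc
HOXB6 probe A_24_P933151: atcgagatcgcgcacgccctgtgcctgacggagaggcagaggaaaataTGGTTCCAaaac
The probe A_24_P914411 has the gene name HOXA10, but its coordinates are chr12:52709820-52709879 on the plus strand of the human build hg17, in the HOXC cluster, and its accession in the files is S69027. The nearest other HOX probe, 987 bases away, is that of HOXC6, and the next is that of HOXC5 at 4555 bases. It matched the HOXB6 probe (chr17:44028861-44028920, minus strand) at 50 of 59 aligned bases, or 84.7%. Its values are given as those of "the S69027 probe", since its coordinates do not place it at HOXA10.

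The next sequences are the HOXA10 probe that lies in the HOXA cluster (chr7:26984865-26984924, minus strand) and probes for a pair of paralogues with the number 8, HOXD8 (chr2:176821616-176821675, plus strand) and HOXC8 (chr12:52691193-52691252, plus strand). The last is the probe of HOXA3 (chr7:26923159-26923218, minus strand) that gave by far the brightest HOX spot.
HOXA10 probe A_23_P253368: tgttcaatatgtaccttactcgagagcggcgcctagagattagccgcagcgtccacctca
HOXD8 probe A_23_P210164: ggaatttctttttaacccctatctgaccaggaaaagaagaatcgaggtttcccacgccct
HOXC8 probe A_23_P398476: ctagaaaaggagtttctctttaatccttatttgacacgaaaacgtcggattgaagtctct
HOXA3 probe A_23_P111571: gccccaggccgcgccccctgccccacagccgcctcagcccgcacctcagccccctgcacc
The HOXD8 and HOXC8 probes matched at 36 of 52 aligned bases. The HOXA3 probe was 81.7% G or C, and 99.9% of all probes had that share or a lower one. Which exon or untranslated part each probe lies in is not given in the sources used here, and how well each binds the macaque transcript was not tested.

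A HOX signal was found in every culture, but most HOX probes were dim. A spot counted as measured when the scanner software marked it well above background. Of the 52 HOX probes, 28 were so marked in the pubertal culture of array 1 (Cy5), 12 in the pubertal culture of array 2 (Cy3), 17 in the infant culture of array 1 (Cy3) and 29 in the infant culture of array 2 (Cy5). The Cy5 cultures had more HOX probes above background than the Cy3 cultures at either stage. Over all probes the same held less steeply, with 73.8% and 70.5% in Cy5 and 59.7% and 61.4% in Cy3. There were 8 HOX probes marked in both Cy5 cultures and neither Cy3 culture (HOXA5, HOXB2, 2 of 3 probes for HOXB3, HOXB5, HOXB6, HOXB7 and HOXC13), and none with the opposite pattern, against 2724 and 5 of all probes. For these genes dye and culture cannot be told apart, and they are not read as present at one stage.

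The 9 probes above background in all 4 cultures were those of HOXA3, HOXA4, HOXB13, HOXC9, HOXD1, HOXD8, HOXD9 and HOXD10 and the S69027 probe. They were 17.3% of the HOX probes, against 57.7% of all probes. A further 19 probes (36.5%) were above background in none, against 24.8% of all probes. For 12 genes no probe was above background in any culture, among them the posterior genes HOXA11, HOXA13, HOXC10, HOXC11, HOXC12, HOXD11 and HOXD12. Their RNA was not detectable at this signal with human probes, which does not show that it is absent. Among the 21 probes for paralogues 9 to 13 (the S69027 probe counted by its name), 11 were above background in no culture. For paralogues 4 to 8 it was 4 of 19 and for paralogues 1 to 3 it was 4 of 12, beside the 24.8% of all probes. The HOXD cluster was measured in blocks: HOXD8, HOXD9 and HOXD10 in all cultures, HOXD11 and HOXD12 in none, and HOXD13 in both pubertal cultures and 1 infant culture.

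**Figure D1:**
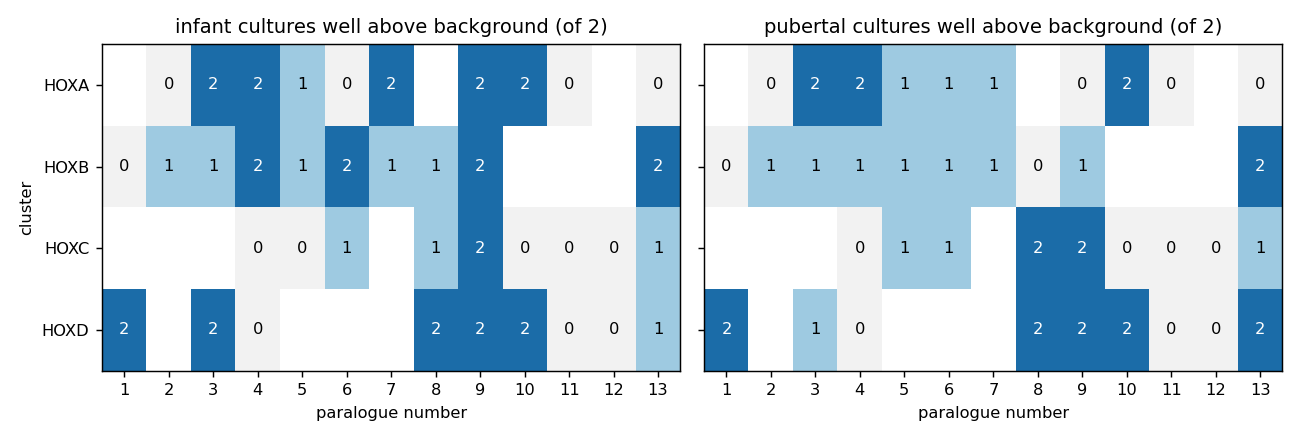
Number of cultures of each stage, of 2, in which a HOX gene was well above background (the highest number over its probes), by cluster (rows) and paralogue number (columns); white cells without a number have no gene or are not shown, and the HOXA10 cell includes the S69027 probe. HOXA9 shows 2 infant and 0 pubertal cultures, and HOXD8 to HOXD10 show 2 of each.

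Few probes followed the stage in whether they were detected. HOXA9 and the HOXA10 probe in the HOXA cluster were above background in both infant cultures and neither pubertal culture, a pattern that only 13 of all 41000 probes had. No HOX probe was above background in both pubertal cultures and neither infant culture, which 57 of all probes were. HOXA7, HOXB4, HOXB6, HOXB9 and HOXD3 were above background in both infant cultures and 1 pubertal culture (690 of all probes), and HOXC8 and HOXD13 in both pubertal cultures and 1 infant culture (1362 of all probes).

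For the comparison of stages, a probe was kept where it was well above background in both cultures of at least 1 stage. This left 18 HOX probes of 17 genes and 25768 probes in all. A probe that passed through the cultures of 1 stage alone is more likely to be lower in the other stage, so counts over the 18 are given beside those without the filter and those for the 9 probes measured in all cultures. Values per array are log2 ratios of pubertal over infant after background correction with an offset of 50 and loess normalization, which removes the dye bias that depends on intensity. The offset draws ratios of dim spots towards 0. Errors are moderated standard errors (SE) of limma's fit with n = 2 array pairs. The moderation draws each probe's spread towards a value shared by all probes kept. The SE is thus not the spread of a probe's 2 arrays alone.

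No HOX gene passed limma's test (0 of 18 probes at an adjusted p under 0.05, against 0.0% of all probes kept), and the adjusted p was 1.00 for each, rounded. At an unadjusted p under 0.05 limma gave 3 lower HOX probes (HOXA9, HOXD9 and HOXD10), against 1.79% of all probes kept, and 0 higher ones, against 2.25%. HOXA9 was kept through the infant cultures alone. Without the filter limma gave 5 of 52 lower at an unadjusted p under 0.05 (HOXA7 and HOXD3 as well), against 1.91% of all probes, and 0 higher, against 2.3%. For probes above background in all 4 cultures it gave 2 of 9 lower (HOXD9 and HOXD10), against 1.83%, and 0 higher, against 2.2%. By sign alone, 12 of the 18 HOX probes (66.7%), of 11 gene names, were lower in the pubertal culture on both arrays, against 21.9% of all probes kept. Of these, HOXA7, HOXA9, the HOXA10 probe of the HOXA cluster, HOXB6, HOXB9 and HOXD3 were kept through the infant cultures alone. HOXC8 was kept through the pubertal cultures alone. Of the 25768 probes kept, 13 passed through the infant cultures with neither pubertal culture above background and 690 with 1. Of the 18 HOX probes it was 2 and 5. A far larger share of the HOX probes was thus open to this bias towards lower ratios, and the 2 percentages are not alike. The 2 probes higher on both arrays were those of HOXA3 and HOXD13 (11.1% of 18), against 23.4% of all probes kept, and HOXD13 was kept through the pubertal cultures alone. With median centring in place of loess, 13 HOX probes were lower on both arrays, against 10.3% of all probes kept, and 0 higher, against 11.6%, since HOXA3, HOXD13 and the HOXA10 probe of the HOXA cluster then had opposite signs and HOXB13 and HOXD1 became lower on both. An exact sign-flip test of a single probe with 2 arrays cannot go below p = 0.5.

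The excess of lower ratios was smaller without the filter. Over all 52 HOX probes, 23 (44.2%) of 19 gene names were lower on both arrays, against 21.6% of all probes unfiltered, and 6 (11.5%) were higher (HOXA2, HOXA3, HOXA11, HOXC4, HOXC11 and HOXD13), against 22.4%. Most of these added probes were not above background, and their signs carry little. Among the 9 probes above background in every culture, 5 were lower on both arrays (HOXA4, HOXD8, HOXD9, HOXD10 and the S69027 probe), against 21.9% of all such probes, and 1, HOXA3, was higher, against 22.5%.

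The other 4 of the 18 HOX probes had opposite signs on the 2 arrays, which is 1 direction of Cy5 over Cy3. HOXB4 was lower in Cy5 on both arrays, as were 25.4% of all probes kept, and HOXB13, HOXC9 and HOXD1 were higher in Cy5, as were 29.2%. These counts are what the 12 and the 2 leave of the 18 and are no separate evidence. Across all probes kept the ratios of the 2 arrays had a Pearson r of -0.07, and 45.3% had the same sign on both, so the arrays as wholes did not share an order. The median ratio of the 18 HOX probes was -0.30 on array 1 and -0.40 on array 2, against 0.02 and -0.01 for all probes kept.

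**Figure D2:**
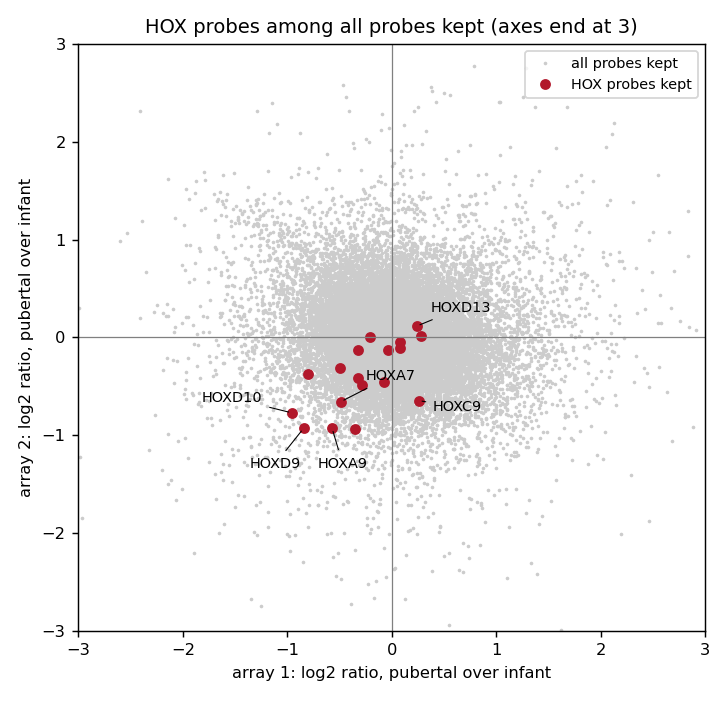
Log2 ratio of pubertal over infant on array 1 (horizontal) and array 2 (vertical) for all 25768 probes kept (grey) and the 18 HOX probes kept (red); a few probes beyond 3 lie outside the axes. The 12 HOX probes lower on both arrays lie at the lower left, with HOXD9, HOXD10 and HOXA9 farthest out, and HOXC9 has opposite signs.

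The uncorrected signals need the dye normalization to be read. They are given as spot intensity minus local background. On array 1 the median of all probes kept was 699 in the pubertal (Cy5) channel and 197 in the infant (Cy3) channel. On array 2 it was 258 for the pubertal (Cy3) and 532 for the infant (Cy5) culture. Before normalization the pubertal signal was below the infant signal on array 1 in 4 of the 18 HOX probes and in 1.41% of all probes kept, and on array 2 in all 18 and in 94.6%. For the other HOX probes, a lower pubertal ratio on array 1 thus means a smaller excess of Cy5 than other probes of like brightness had.

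HOXD9 and HOXD10, posterior genes known from limb and lumbar patterning, had the lowest mean HOX ratios with the offset of 50. With the scanner's signals, offsets of 0 and 10 and median centring HOXA9 was lower than both, at -3.98, -2.08, -1.51 and -1.03. It was not alone in this. With the scanner's signals HOXD9 and HOXD10 had means of -1.25 and -1.30. HOXA7 (-1.98), the S69027 probe (-1.87), HOXB6 (-1.71), HOXD3 (-1.65) and the HOXA10 probe of the HOXA cluster (-1.55) were lower. With an offset of 0 HOXA7 (-1.34) and the S69027 probe (-1.32) were lower than both, and with median centring the S69027 probe was (-0.87). HOXD9 (probe A_23_P429383, chr2:176814536-176814595) had signals of 233 and 83.2 in the pubertal cultures of arrays 1 and 2 and of 154 and 379 in the infant cultures. All 4 were well above background, and infant array 2 was the highest and pubertal array 2 the lowest. Its log2 ratios were -0.84 and -0.93, a mean of -0.89 ± 0.24 (SE, n = 2 array pairs). Its mean stood at rank 282 from the lowest of 25768 probes.

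HOXD10 (A_23_P381368, chr2:176809535-176809594) ran alongside its neighbour. Its signals were 186 and 72.8 in the pubertal cultures and 141 and 293 in the infant cultures. They lay in the same order as those of HOXD9. Its ratios were -0.95 and -0.77 (mean -0.86 ± 0.24), at rank 314. For HOXD9 and HOXD10 alike, the arrays differed from each other by less than the moderated SE, which is mostly set by other probes.

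HOXD8 and HOXD3, further genes of that cluster, had the same sign. HOXD8 gave 135 and 82.4 in the pubertal cultures and 75.7 and 213 in the infant cultures, all above background, with ratios of -0.50 and -0.31 (mean -0.40 ± 0.24). HOXD3, known from the cervical vertebrae, gave 61.9 and 32.1 against 62.8 and 89.7, and its pubertal spot on array 2 was not well above background. Its ratios were -0.80 and -0.38 (mean -0.59 ± 0.26). HOXD1, at the anterior end, showed no shared direction (0.08 and -0.05).

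HOXD13, known for digit and genital development, was an exception in the cluster. Its signals were 67.7 and 30.5 in the pubertal cultures, both above background, and 18.5 and 33.7 in the infant cultures, of which array 1 was not. The ratios were 0.24 and 0.11 (mean 0.18 ± 0.24), smaller than their SE. Of the 6 HOXD probes kept, 4 were lower on both arrays, 1 was higher and 1 opposite, with a median mean of -0.50.

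In the HOXA cluster, HOXA9, known from blood progenitors and the müllerian duct, stood out for its detection. Its probe (A_23_P500998, chr7:26975828-26975887) gave 9.66 and 15.5 in the pubertal cultures, neither well above background, and 30.2 and 108 in the infant cultures, both above. These uncorrected signals differ in dye and array, and the pubertal level is only a bound. The probe was kept through the infant cultures alone, which makes lower pubertal signals more likely. Its ratios were -0.57 and -0.93 (mean -0.75 ± 0.25). Over the means of both arrays HOXA9 was at least 1.68-fold higher in infant cultures, the normalized infant level against the higher of the pubertal spot and the lowest signal well above background on each array. That value holds for the mean and rests on the offset, and the array 1 ratio alone was smaller. limma's adjusted p was again 1.00.

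The HOXA10 probe of the HOXA cluster was nearer to the limit. It gave 23.9 and 24.9 in the pubertal cultures, not well above background, and 26.2 and 42.8 in the infant cultures. The stages did not overlap in these uncorrected signals, but 23.9 and 26.2 were close, and this probe too was kept through the infant cultures alone. Its ratios were -0.33 and -0.12 (mean -0.23 ± 0.24), a mean smaller than its SE, so no fold is given. A further HOXA10 probe, A_24_P77904, was above background in no culture.

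The S69027 probe, also named HOXA10, was above background in all cultures. It gave 37.2 and 28.4 in the pubertal cultures and 31.3 and 163 in the infant cultures, and infant array 2 stood far above the rest. Its ratios were -0.35 and -0.94 (mean -0.64 ± 0.27). The HOXC6 probe nearest to it had ratios of -0.29 and -0.41. It was above background in the cultures of array 2 only, so not in both cultures of a stage, and was not kept. The HOXB6 probe that resembles it in sequence (A_24_P933151) was above background in Cy5 alone, with ratios of -0.08 and 0.01.

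HOXA7 and HOXA4 were the other HOXA genes lower on both arrays. HOXA7, a trunk gene, gave 26.0 and 26.1 in the pubertal cultures, of which array 2 was not above background, and 32.9 and 109 in the infant cultures. This probe was also kept through the infant cultures alone. The ratios were -0.49 and -0.66 (mean -0.57 ± 0.24). HOXA4, known in mice from male germ cells, gave 54.1 and 35.7 against 34.0 and 116, all above background, with ratios of -0.28 and -0.49 (mean -0.39 ± 0.24).

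HOXA3, known from the pharyngeal arches and the thymus, gave probe values that disagreed. The GC-rich probe printed above gave 65088 and 20580 in the pubertal cultures and 11361 and 51904 in the infant cultures, with a saturated spot. Its ratios were 0.28 and 0.01 (mean 0.15 ± 0.25), smaller than the SE. The other HOXA3 probe, A_23_P501538, had signals of 33.9 and 25.2 in the pubertal and 30.6 and 16.8 in the infant cultures, above background on array 1 only, and ratios of -0.36 and 0.19. No direction for HOXA3 follows from them. Of the 6 kept probes with a HOXA name, 5 were lower on both arrays and 1, HOXA3, was higher, with a median mean of -0.48. The 6 include the S69027 probe (mean -0.64), whose coordinates lie in the HOXC cluster. It is among the 5 lower ones.

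**Figure D3:**
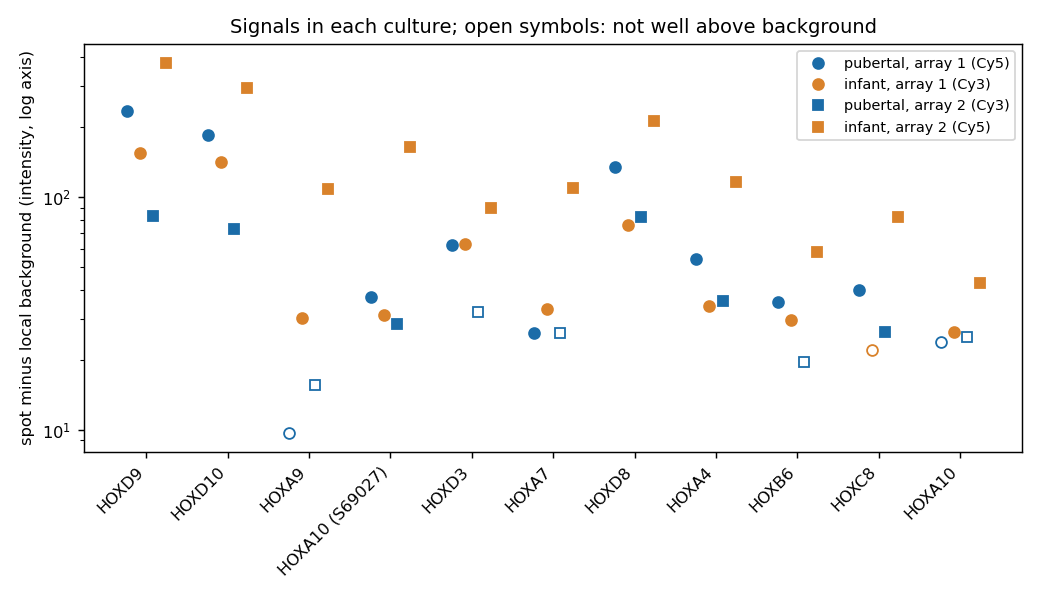
Spot intensity minus local background (log axis) in each culture for the 11 HOX probes of the named genes lower on both arrays; circles are array 1, squares array 2, blue pubertal, orange infant, and open symbols were not well above background. Compare colours within a probe only: the infant culture of array 2 (Cy5) is the highest for each, and HOXA9 has both pubertal values open.

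The HOXB and HOXC ratios were mostly nearer to 0. HOXB6, a trunk gene also known from early blood cells, gave 35.2 and 19.5 in the pubertal cultures, of which array 2 was not above background, and 29.6 and 57.9 in the infant cultures. Its ratios were -0.32 and -0.42 (mean -0.37 ± 0.24). HOXB9 had ratios of -0.04 and -0.13, HOXB4, known from blood stem cells, of -0.21 and 0.01, and HOXB13, known from the prostate, of 0.07 and -0.11. Each of these 3 means was smaller than its SE. The median mean of the 4 HOXB probes kept was -0.09, with 2 lower on both arrays and 2 opposite.

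HOXC8, a gene of the thoracic trunk, gave 39.9 and 26.2 in the pubertal cultures and 22.1 and 82.1 in the infant cultures, and its infant spot on array 1 was not above background. Its ratios were -0.07 and -0.45 (mean -0.26 ± 0.25). The HOXC8 probe printed above was above background in no culture. HOXC9 was well above background in all cultures, at 317 and 92.9 in the pubertal and 77.5 and 325 in the infant cultures, and its ratios of 0.26 and -0.65 went opposite ways. On each array its uncorrected signals lay in the order of the dyes, as did those of most probes kept. Whether the opposite ratios came from the dye or from differences between the animals was not tested.

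**Figure D4:**
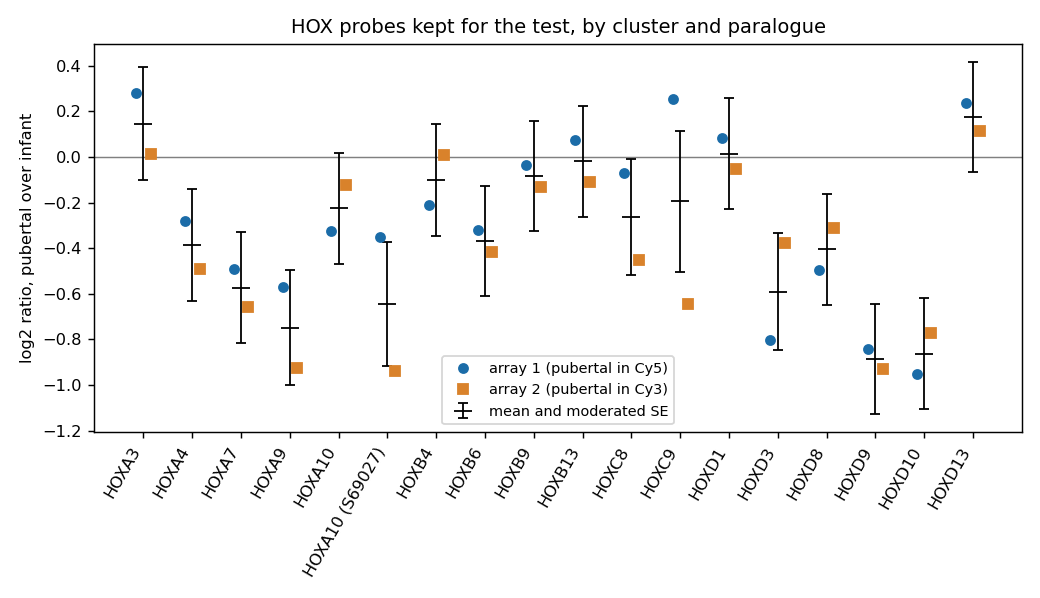
Log2 ratio of pubertal over infant for each of the 18 HOX probes kept, by cluster and paralogue; circles are array 1, squares array 2, and bars show the mean with the moderated SE. The means of HOXD9 and HOXD10 lie lowest, at -0.89 and -0.86, and HOXB13 and HOXD1 lie at 0 within their error.

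The 34 HOX probes that were not kept include 15 that were above background in at least 1 culture. They are 1 probe each for HOXA3, HOXA5, HOXA6, HOXB4, HOXB5, HOXB6, HOXB7, HOXB8, HOXC5, HOXC6 and HOXC13, and 2 each for HOXB2 and HOXB3. Over all 34 the mean ratios lay between -0.35 (HOXC6) and 0.11 (HOXA2) with a median of -0.02, and 11 were lower and 4 higher on both arrays. HOXA5, known from lung and stomach development, had the next lowest ratios after HOXC6, at -0.19 and -0.34, and its signals of 31.9 (pubertal, array 1) and 53.1 (infant, array 2) were above background in Cy5 only.

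By position along the clusters, the 6 probes kept for paralogues 4 to 8 had a median mean of -0.38 and the 9 for paralogues 9 to 13 one of -0.23. The 9 count the S69027 probe by its name. The 3 for paralogues 1 to 3 had 0.01. With the scanner's signals the order of the first pair turned, with -0.85 for paralogues 4 to 8 and -1.25 for 9 to 13, and paralogues 1 to 3 had 0.20. These medians rest on few probes, the high-numbered group holds HOXD9 and HOXD13 at its extremes, and no test of position was made.

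The sizes depend on how dim spots are treated. With the scanner's own processed signals, which have no offset, 7 of the 18 HOX probes (38.9%) were at least 2-fold lower on both arrays: HOXA7, HOXA9, HOXB6, HOXD3, HOXD9, HOXD10 and the S69027 probe. That compares with 1.03% of all probes kept, but HOXA7, HOXA9, HOXB6 and HOXD3 were kept through the infant cultures alone. Without the filter 8 of 52 were so (HOXC6 as well), against 0.82% of all probes, and of the 9 probes above background in all 4 cultures 3 were (HOXD9, HOXD10 and the S69027 probe), against 0.715%. Of the 18, none was at least 2-fold higher, against 1.27%. With the offset, none of the 18 was at least 2-fold lower (0.299% of all probes kept) or higher (0.303%). By sign, 12 of the 18 were again lower on both arrays, against 23.2% of all probes kept. No HOX probe passed limma's test on them either (0.0% of all probes kept), while limma gave 9 lower at an unadjusted p under 0.05 (2.6% of all probes kept) and 0 higher (3.1%).

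HOXD9 was at -1.30 and -1.20 by the scanner's signals and HOXD10 at -1.58 and -1.02. HOXA9 was at -3.92 and -4.04, where the pubertal signal is not well above background and the ratio has no firm size. The authors' deposited table, which lists log2 ratios for a part of the probes, held 12 HOX probes. It gave -1.30 and -1.22 for HOXD9, -1.58 and -1.03 for HOXD10, -0.78 and -1.20 for HOXA4, -1.61 and -2.19 for the S69027 probe and 0.55 and -1.01 for HOXC9. In the authors' deposited table HOXA7 (-2.31), HOXB4 (-1.64), HOXB6 (-1.54), HOXD3 (-1.89) and the dim HOXA3 probe (-1.15) had a value for array 1 alone, and HOXC6 (-1.13) and HOXC8 (-1.23) for array 2 alone.

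Genes listed with the TALE-class partners of HOX proteins had mostly mixed signs. The list is broader than established HOX partners, since it also holds PBXIP1, TGIF1 and TGIF2. Of its 12 genes, all measured, 0 passed limma's test, 4 were lower on both arrays and 1 higher. The medians were -0.22 on array 1 and -0.19 on array 2. The homeobox genes PKNOX2 (-0.43 and -0.52), MEIS1 (-0.98 and -0.19), TGIF1 (-0.21 and -0.70) and MEIS2 (-0.36 and -0.20, and a mean of -0.13 for its other probe) were the lower ones. MEIS proteins are known partners of posterior HOX proteins on DNA. The list's median on array 1 turned to 0.19 with median centring, a setting whose medians over all probes kept were 0.57 and -0.37 on the 2 arrays.

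Of the regulators of the clusters, 29 of 30 Polycomb genes were measured, of which 4 were lower and 5 higher on both arrays. Their medians were -0.003 and 0.03. EZH1 and EZH2, alternative methyltransferases of the repressive complex, had -0.64 and -0.50, and 0.45 and 0.39. RNF2, a ubiquitin ligase of the other Polycomb complex, had 0.26 and 0.46 by 1 probe and a mean of -0.06 by the other, and JARID2 had 1.91 and -0.002. Of 12 measured Trithorax-type genes 0 were lower and 3 higher. Of 10 measured upstream regulators 3 were lower and 2 higher, among them the retinoic acid hydroxylases CYP26A1 (0.53 and 0.25) and CYP26B1 (-0.43 and -0.32) and the receptor RARA (-0.51 and -0.23). Their other probes had means of -0.09 for CYP26B1 and 0.01 for RARA. CDX2, CDX4 and RARB were not kept. None of these genes passed limma's test (0 in each list).

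Genes that flank the HOX clusters gave no common direction. Of 20 measured, 6 were lower on both arrays and 4 higher. Their medians were -0.16 and -0.01. CALCOCO2 was at -0.54 and -0.86, CBX1 at -0.78 and -0.22 (means of its other probes -0.32 and -0.34), and NFE2 at 0.53 and 0.64. Of 11 measured homeobox genes outside the clusters 2 were lower and 5 higher, with SIX4 at -0.71 and -1.06 and LHX2 at 1.22 and 0.58. With median centring 0 flanking genes were lower and 2 higher. No gene of these lists passed limma's test (0 in each).

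The cultures held the markers of Sertoli cells, all 12 of them measured, with 7 higher in the pubertal cultures on both arrays and 1 lower. Their medians were 0.42 and 0.37. CST9L had ratios of 4.85 and 4.58, with an adjusted p of 0.106 in limma's test. With median centring 4 were higher and 1 lower, and the medians were 1.34 and -0.08. In limma's test 1 Sertoli marker passed with median centring, and 1 passed with a normexp offset of 0. Markers of stromal fibroblasts, another testis cell type, mostly had ratios below 0. Of 12 stromal markers, each above background in all 4 cultures, 10 were lower on both arrays and 0 higher, and with median centring 7 were lower and 0 higher. Their medians were -1.27 and -0.76. LUM (-2.39 and 1.19) and THY1 (0.46 and -0.83) had opposite signs on the arrays. FBLN1 was at -1.28 and -1.30, NR2F2 at -1.60 and -1.06 and COL6A3 at -1.14 and -1.04. Further probes had means of -0.10 and -0.49 for FBLN1 and -1.10 for NR2F2. Their summed normalized level was 34182 and 48760 in the pubertal cultures and 81371 and 76412 in the infant cultures, with no overlap. Their part in the HOX ratios was not tested. In RNA from whole cultures, fewer cells of a type and less RNA per cell cannot be told apart.

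Germ cell markers had ratios above 0. Of 8 measured, 7 were higher on both arrays, and their medians were 1.17 and 0.61. Their summed level was 2599 and 2168 in the pubertal and 1142 and 1132 in the infant cultures. Markers of peritubular muscle (2 lower and 2 higher of 6), Leydig cells (1 and 1 of 5), macrophages (1 and 1 of 5), endothelium (0 and 1 of 2) and rete or duct epithelium (0 and 0 of 4) had no common direction. Their part was not tested. In the main fit, with loess and the offset stated above, no marker passed limma's test (0 in each list). With median centring or a normexp offset of 0, only the Sertoli list held a marker that passed.

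**Figure D5:**
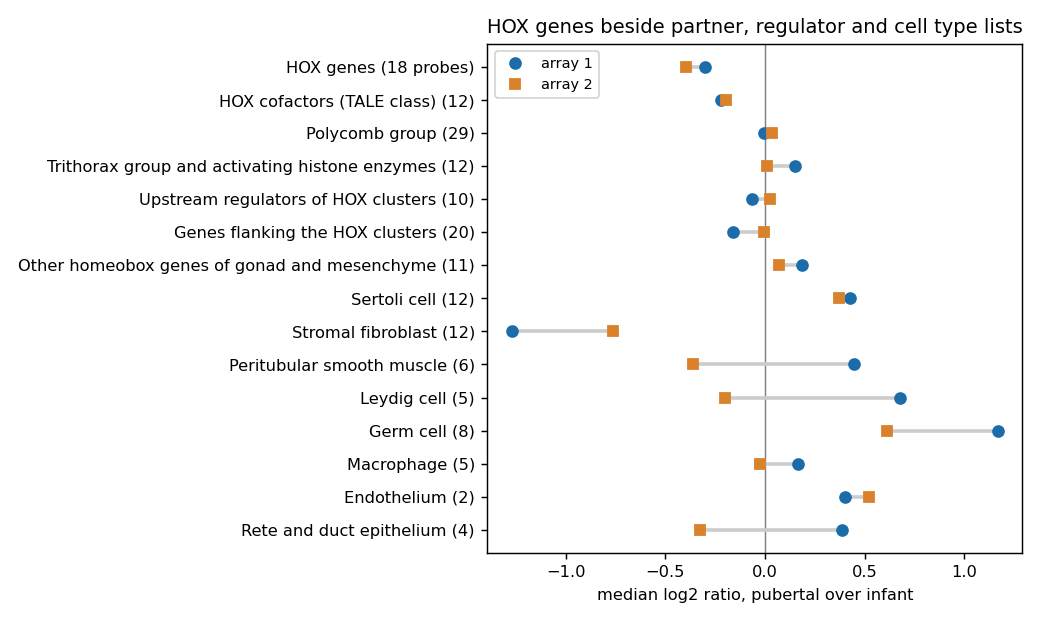
Median log2 ratio of pubertal over infant on array 1 (circles) and array 2 (squares) for the 18 HOX probes kept and for each list of related or cell type genes, with the number measured in brackets. The HOX medians, -0.30 and -0.40, lie between those of the TALE cofactors and of the stromal fibroblast markers.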

How the data were processed

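The arrays carried 60-base human probes (design 014850, build hg17), per the file headers. The submitters' processing notes name Agilent Feature Extraction 9.5.1.1 as the authors' scanner software. Each deposited scanner file gives spot and local background intensity per channel, not normalized, processed intensities (background-subtracted and dye-normalized) and their log10 ratio of Cy5 over Cy3. Deposited flags mark saturated, outlier and well-above-background spots. The authors' deposited table holds log2 ratios whose normalization is not given in the sources used here. Their slopes against the scanner's pubertal-over-infant ratios were 1.006 and 1.003, and the column medians were -0.37 and 0.12.

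Spot intensities were corrected with normexp (offset 50) and normalized by loess within each array in limma 3.58.1 (R 4.3.3). Control spots had no weight and outlier spots were left out. Spots of 1 probe were averaged (43376 spots, 41000 probes), and 15232 probes were not kept. The dye labels set the direction of each ratio, pubertal over infant. limma's lmFit and eBayes were fitted on all probes kept (two-sided, 1 residual and 4.33 prior degrees of freedom), with Benjamini-Hochberg adjustment, and were tested on simulated data. Both arrays lay on 1 slide, so no batch could be compared, and the number of arrays limits the precision. p-values rest on the spread between these 2 pairs, moderated by a spread shared over all probes kept.

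Every HOX probe was used on its own. Values per array are given for HOX genes with a kept probe, and statistics for those whose kept probes had 1 sign on both arrays, up to 12 genes. The list gene's brightest kept probe stood for it, and up to 4 genes per pathway list and 3 per marker list of smallest p are named. The members and lists were chosen with earlier results of these data known. All 39 HOX symbols were in the macaque RefSeq gene table. Alternatives were the scanner's signals, other offsets, median centring, other filters, 1 probe per gene, an intensity trend, no saturated probes and single arrays. The values of 1 gene are not reported here.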

Additional observations from a re-analysis of the deposited data

How the results depend on the processing

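All 108 values of the 12 named HOX genes' probes under the alternatives kept the sign of the mean. None passed limma's test, and their adjusted p ranged from 0.109 (intensity trend) to 1. The other filters, 1 probe per gene, the intensity trend and leaving out saturated probes do not change a probe's ratio. Only the scanner's signals, the other offsets and median centring could turn a sign. The genes were also named for having 1 sign on both arrays, so the unchanged signs carry little. The count of HOX probes past the test was 0 under every alternative fitted. The HOX median ratio of -0.32 was -0.85 from the scanner's signals and -0.63 and -0.52 with normexp offsets of 0 and 10, -0.44 with median centring, -0.039 over all 52 probes unfiltered and -0.39 for probes above background in all 4 channels. Leaving out a replicate gave -0.40 to -0.30. HOX probes at least 2-fold lower on both arrays numbered 7 from the scanner's signals and 4 and 2 with offsets of 0 and 10 (0.582% and 0.462% of all probes), against 0. With the scanner's signals they numbered 8 without the filter and 3 above background in all 4 channels, both added after seeing the data. HOX probes lower on both arrays numbered 23 without the filter and 5 with the strict one, which change the probes tested, and 13 to 15 on a single array (47.4% and 51.2% of all probes). Those higher numbered 1 with an offset of 0 and 1 with an offset of 10, 0 with median centring, 6 without the filter, 1 with the strict filter, 1 without saturated probes and 3 to 5 on a single array (48.8% and 52.6% of all probes), the 5 being without replicate 2. The cause of the other shifts was not tested. Dim signals, near the background for most HOX probes, limit the sizes. Each array is already 1 ratio of a pubertal to an infant culture, so limma's fit compares the stages within the 2 array pairs. The labels give a single group of 2, and no further pairing was possible.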

Other observations

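The array also carries a probe named HOXA11S, an antisense transcript of the HOXA11 locus, which the name rule leaves out. It was above background in no culture, with signals of 16.5 and 19.7 in the pubertal cultures and 10.7 and 22.6 in the infant cultures of arrays 1 and 2. HOXA11 itself was above background in no culture.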
